A study of Mus musculus with 33 samples.

Results

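The genes described here encode the extracellular side of Wnt signalling, that is, the Wnt ligands, their receptors and co-receptors, the R-spondins with their Lgr receptors, and the secreted antagonists with the Kremen receptors. They were chosen by gene symbol (Wnt, Fzd, Sfrp, Dkk, Frzb, Lrp5, Lrp6, Ror1, Ror2, Rspo, Lgr4 to Lgr6, Kremen1 and Kremen2), and 51 of the 52631 genes in the table met that rule. They comprise 19 ligands, 14 receptors and co-receptors, 7 R-spondins and Lgr receptors, and 11 antagonists and Kremen receptors. The study sequenced poly(A) RNA of 33 mouse samples, which form 11 groups with 3 libraries each. Every sample carries the strain label 129S2/SvPas. In the RA/CHIR arm, stem cells plated on gelatin received all-trans retinoic acid at 10 µM together with CHIR at 5 µM, and the samples are labelled as XEN-like (RA/CHIR-4d, RA/CHIR-7d, RA/CHIR-10d and RA/CHIR-16d). In the RA arm they received the retinoic acid alone, and the samples are labelled as SMC-like (RA-4d, RA-7d, RA-10d and RA-16d). CHIR stands for a small molecule that inhibits the kinase GSK3. Both arms had the inducers for 10 days in medium with 15% serum, followed by 6 days in 10% serum without them, so that the samples of day 16 were free of inducers. The untreated stem cells (mES) grew with LIF on mitomycin-inactivated embryonic fibroblasts, and RNA of those feeder cells can be part of the mES libraries. An extraembryonic endoderm cell line (XEN) and a smooth muscle cell line (SMC) grew in 15% serum. The labels do not state whether replicates are separate cultures, so p-values measure the spread between these libraries, which may be technical.

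Wnt proteins are lipid-modified secreted ligands that bind Frizzled receptors (Fzd). With the co-receptors Lrp5 or Lrp6 they block GSK3 in the destruction complex, so that beta-catenin accumulates and acts with LEF/TCF factors on target genes; with Ror1 or Ror2 they act on cell polarity and movement without beta-catenin. R-spondins bind Lgr receptors and keep Frizzled receptors on the cell surface, while Sfrp proteins and Frzb bind ligands outside the cell and Dkk proteins act on Lrp5 and Lrp6, with Kremen receptors as their partners. A GSK3 inhibitor acts below the receptors. In the early embryo, Wnt signals take part in forming the primitive streak, mesoderm and endoderm.

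Promoter sequences are given for the 4 members with at least 5 FPKM that were higher with CHIR on both day 4 and day 7 (Wnt6, Wnt2, Fzd10 and Dkk1) and for Sfrp5, the member with the largest fall on day 4. They are RefSeq sequences of the mouse build GRCm38.p6, from 250 bases before to 50 bases after the RefSeq gene start, which can differ from the gene coordinates given further on, and are written 5′ to 3′ on the gene's strand. Capitals mark CTTTGA, the core of the LEF/TCF motif, or its reverse complement TCAAAG.
Wnt6, chr1:74771642-74771941 (+ strand): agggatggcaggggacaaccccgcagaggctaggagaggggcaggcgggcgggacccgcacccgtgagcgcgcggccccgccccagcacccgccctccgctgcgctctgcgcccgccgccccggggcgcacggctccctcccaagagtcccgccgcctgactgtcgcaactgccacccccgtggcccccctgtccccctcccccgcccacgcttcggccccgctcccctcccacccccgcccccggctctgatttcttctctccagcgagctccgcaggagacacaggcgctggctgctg
Wnt2, chr6:18030396-18030695 (- strand): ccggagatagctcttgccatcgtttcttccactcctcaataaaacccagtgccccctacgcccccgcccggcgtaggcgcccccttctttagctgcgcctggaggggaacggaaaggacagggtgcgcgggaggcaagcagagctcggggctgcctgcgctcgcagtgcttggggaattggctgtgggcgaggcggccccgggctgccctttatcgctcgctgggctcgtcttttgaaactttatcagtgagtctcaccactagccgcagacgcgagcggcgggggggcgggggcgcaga
Fzd10, chr5:128600856-128601155 (+ strand): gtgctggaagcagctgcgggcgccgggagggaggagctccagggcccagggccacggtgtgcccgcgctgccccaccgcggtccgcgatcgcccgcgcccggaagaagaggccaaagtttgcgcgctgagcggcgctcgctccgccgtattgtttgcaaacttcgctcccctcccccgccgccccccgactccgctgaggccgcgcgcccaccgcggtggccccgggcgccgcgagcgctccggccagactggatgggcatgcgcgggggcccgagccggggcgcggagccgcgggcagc
Dkk1, chr19:30549447-30549746 (- strand): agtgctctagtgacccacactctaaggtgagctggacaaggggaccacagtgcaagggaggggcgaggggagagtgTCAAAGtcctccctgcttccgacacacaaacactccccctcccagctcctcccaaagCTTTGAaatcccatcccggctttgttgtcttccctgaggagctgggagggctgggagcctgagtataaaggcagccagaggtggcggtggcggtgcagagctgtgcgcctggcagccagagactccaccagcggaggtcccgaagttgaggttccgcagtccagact
Sfrp5, chr19:42202203-42202502 (- strand): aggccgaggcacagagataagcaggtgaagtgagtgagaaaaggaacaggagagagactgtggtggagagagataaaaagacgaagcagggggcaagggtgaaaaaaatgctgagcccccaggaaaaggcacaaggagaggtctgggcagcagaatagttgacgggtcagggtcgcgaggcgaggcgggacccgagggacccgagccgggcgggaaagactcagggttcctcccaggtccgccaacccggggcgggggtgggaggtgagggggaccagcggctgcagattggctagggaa
The letters CTTTGA, read on both strands, stood in the Dkk1 window at positions -174 and -117 from the gene start, and in none of the other windows shown. RefSeq windows were at hand for 33 of the 51 members, in 36 entries, and 6 members had the letters in at least 1 of them (Wnt5b, Wnt11, Fzd1, Ror1, Frzb and Dkk1). Of all 27025 genes of the promoter table, 18.2% had CTTTGA on either strand in at least 1 window, the same share as that of the members. AGGTCA, the core site of nuclear receptors such as the retinoic acid receptors, stood on either strand in the windows of 18.1% of all genes and of 2 members (Wnt16 and Frzb), and in none of the windows printed, so no match of one motif overlapped the other there. A match is a run of letters and not a measured binding site.

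Values are FPKM, fragments scaled by transcript length and library size by the authors, so levels can be set side by side between genes. Differences are on the scale log2(FPKM + 1), which understates changes of genes near 0. A difference is called where limma's adjusted p is below 0.05 and its size is at least 1. FPKM columns summed to 597010 to 1086371, and 11573 to 13662 genes had at least 1 FPKM. The table holds no fragment counts, and the steps between low values put the libraries' relative depth at 0.761 to 1.41. Of 8 markers for each type, all 8 reached a group mean of 1 FPKM in the libraries labelled for it (pluripotency in mES, extraembryonic endoderm in XEN and in RA/CHIR-16d, smooth muscle in SMC and in RA-16d). These counts do not single out a type. All 8 extraembryonic endoderm markers also reached that mean in mES, RA-4d, RA-7d and RA-16d, and 7 smooth muscle markers did in XEN. The extraembryonic endoderm sum was lower in XEN, at 4951 to 5277 FPKM, than in SMC, at 7046 to 7266 FPKM, with the matrix gene Sparc alone at 7107 ± 110.4 FPKM in SMC and Sox7, Sox17 and Foxa2 below 1 FPKM there. Pou5f1 averaged 1326 ± 332 FPKM in mES, Gata4 246 ± 2.81 FPKM in XEN and Acta2 11435 ± 138 FPKM in SMC (SD, n = 3 each). In bulk RNA, fewer cells of a type and less RNA per cell cannot be told apart. Of the 51 members, 44 passed the filter of at least 1 FPKM in at least 3 libraries. Those not tested were Wnt1, Wnt3a, Wnt8b, Wnt9b, Wnt16, Rspo4 and Dkk4, which reached 1 FPKM in no library. Exons of Wnt5a, Wnt7b, Wnt11, Fzd5, Fzd6, Rspo3, Sfrp2 and Kremen2 overlap a gene on the opposite strand, and since no source states that strand was used in counting, reads of each of these pairs cannot be told apart.

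The leading member changed with arm and day. Wnt6 was the most abundant member on days 4, 7 and 10 of the RA/CHIR arm, at 77.0 ± 3.32 FPKM (SD, n = 3) on day 4, and Dkk3 led on day 16, at 47.5 ± 0.536 FPKM. In the RA arm Fzd7 led on day 4, at 51.9 ± 1.70 FPKM, and Sfrp1 on days 7, 10 and 16, at 128 ± 21.7 FPKM on the last of them. Sfrp1 also led in SMC, Fzd2 in XEN and Fzd5 in mES. The number of members with a group mean of at least 5 FPKM was 15, 15, 15 and 11 on days 4, 7, 10 and 16 of the RA/CHIR arm, 16, 18, 20 and 22 on the same days of the RA arm, 9 in mES, 12 in XEN and 19 in SMC.

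The summed FPKM of the 19 ligands ran in opposite directions in the arms while the inducers were present. In RA/CHIR libraries the sum was 120.4 to 127 FPKM on day 4, 88.4 to 91.3 on day 7, 75.2 to 82.5 on day 10 and 22.2 to 25.0 on day 16. In RA libraries it was 21.7 to 22.8, 91.4 to 102, 169 to 177 and 106 to 119 on the same days. Wnt6 alone made up 62.4% of the RA/CHIR-4d sum, whereas Wnt11, Wnt4 and Wnt9a shared most of the RA-10d sum, with 28.0%, 24.8% and 17.2%. The 4 Sfrp genes with Frzb, antagonists that bind ligands, summed to 9.61 to 10.3 FPKM in RA/CHIR-4d against 95.1 to 99.8 FPKM in RA-4d, and to 11.6 to 12.4 FPKM in RA/CHIR-16d against 142 to 188 FPKM in RA-16d. The 4 Dkk genes summed to 42.6 to 44.7 FPKM in RA/CHIR-7d against 34.5 to 35.8 FPKM in RA-7d. Dkk1 made up 57.4% of the RA/CHIR-7d sum, and Dkk3 89.9% of the RA-7d sum.

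**Figure D1:**
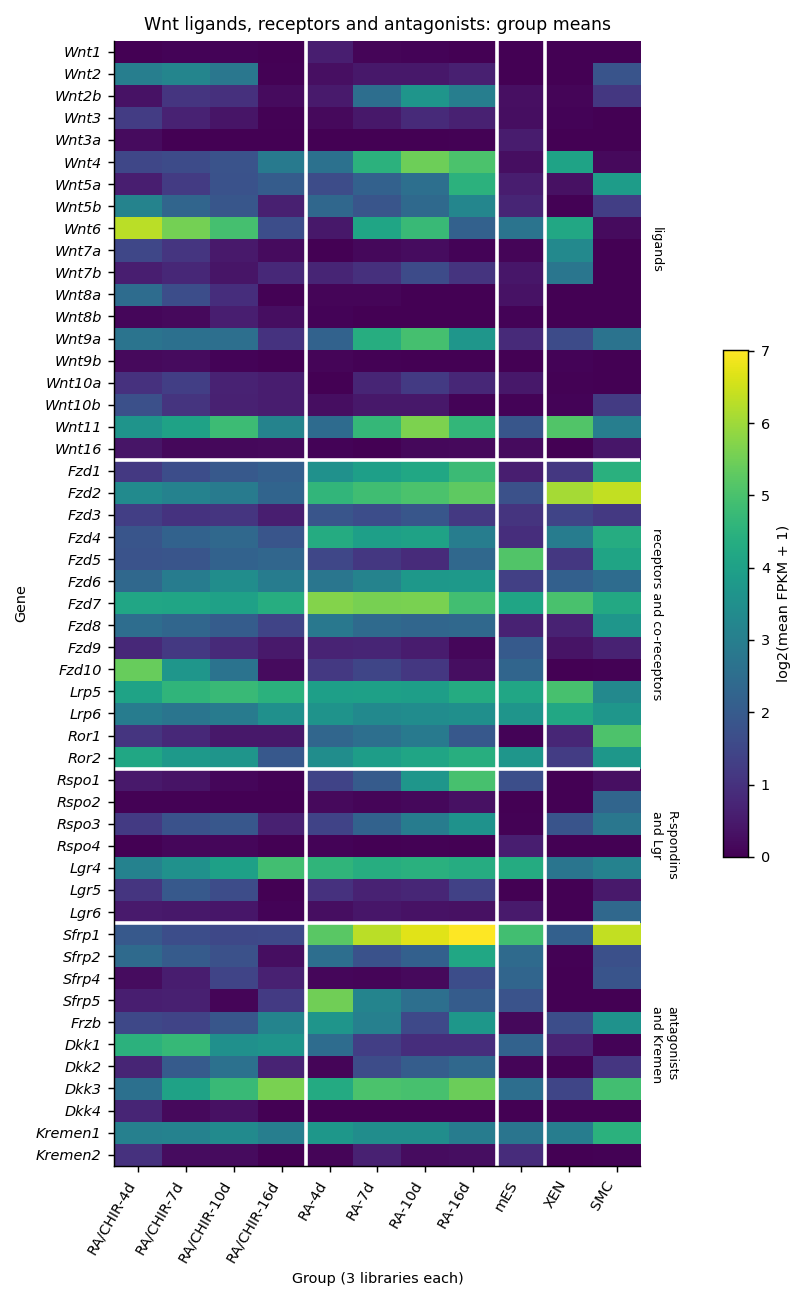
Group means of the 51 members as log2(mean FPKM + 1), with genes in rows by role and the 11 groups in columns (3 libraries each). Wnt6, Fzd10 and Dkk1 are bright in the early RA/CHIR columns, and Sfrp1, Fzd1, Fzd2 and Fzd4 in the RA and SMC columns. Fzd2 is bright in XEN as well, and Fzd5 in mES and, less so, in SMC.

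Adding CHIR to retinoic acid went with more RNA of several ligands on day 4, with more Dkk1 on all days, and with less RNA of Wnt4, Fzd1, Fzd2, Fzd4, Ror1 and Sfrp1 on all days. On day 4, RA/CHIR against RA, 10 of the 51 members were called higher and 12 lower, where 3.34% and 4.28% of all genes tested were called in those directions. On day 7 it was 6 higher and 13 lower (background 4.06% and 6.61%), on day 10 it was 5 and 13 (6.35% and 9.07%), and on day 16, after 6 days without inducers, 1 and 18 (8.41% and 12.9%). The balance of the members moved towards lower values. The median log2 difference over all 51 members was 0.06, -0.07, -0.20 and -0.53 on days 4, 7, 10 and 16, while the medians over all genes tested lay between -0.01 and 0.01. In all, 34 members were called on at least 1 day. Shares over all genes were taken for each day alone, so counts over several days have no share beside them. Dkk1 was higher on all 4 days, and Wnt4, Fzd1, Fzd2, Fzd4, Ror1 and Sfrp1 were lower on all 4. Wnt11, Lgr5 and Sfrp4 were higher on some days and lower on others.

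**Figure D2:**
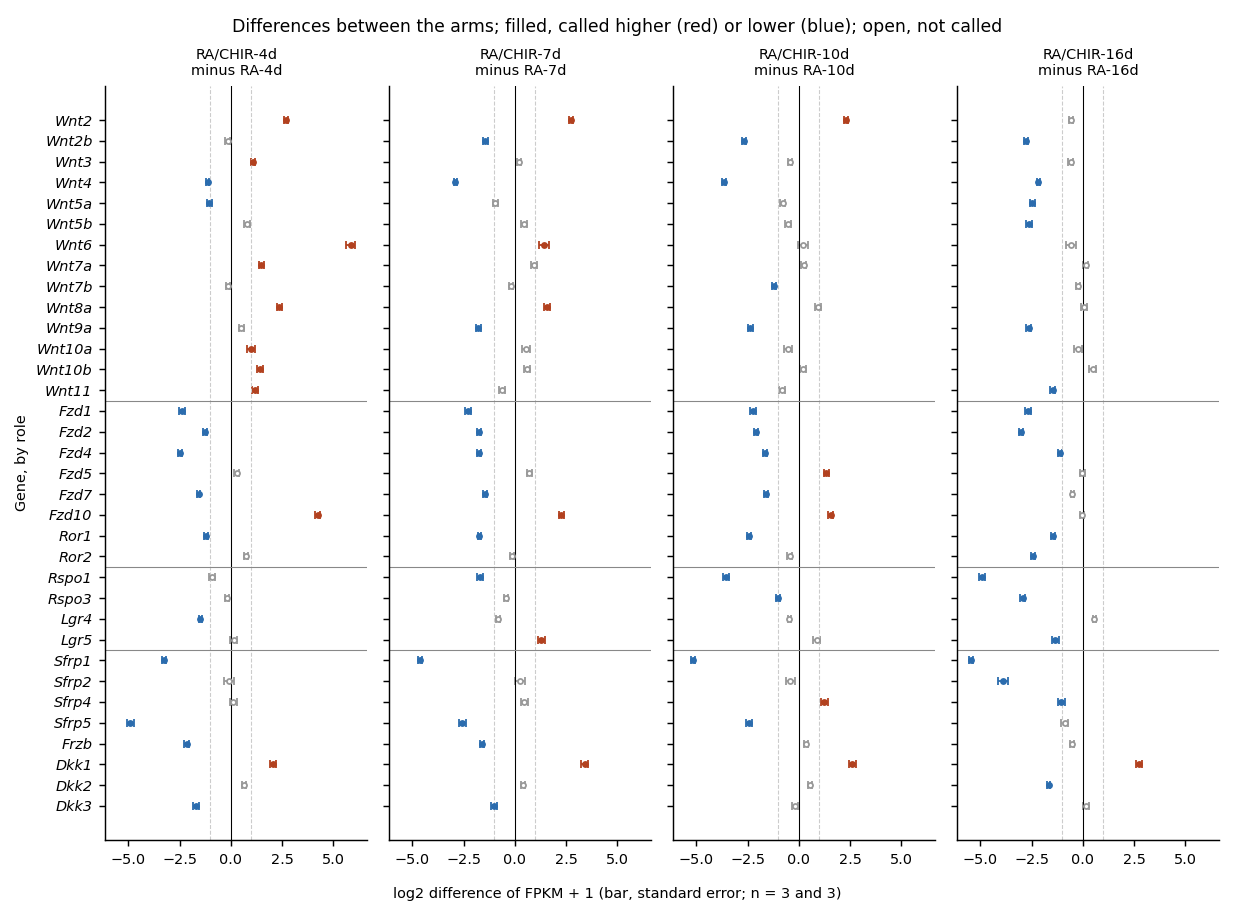
Log2 difference of FPKM + 1, RA/CHIR minus RA, on the 4 days for the 34 members called on at least 1 of them, grouped by role (ligands, receptors, R-spondins and Lgr, antagonists); points are model estimates, bars their standard errors (3 against 3 libraries) and dashed lines the threshold of 1. Called ligands lie mostly to the right on day 4 and to the left on day 16, while Fzd1, Fzd2, Fzd4 and Sfrp1 lie to the left in every panel.

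Among the 19 ligands, 8 were called higher and 2 lower on day 4, 3 and 3 on day 7, 1 and 4 on day 10, and 0 and 6 on day 16. Shares over all genes tested grew from 3.34% higher and 4.28% lower on day 4 to 8.41% and 12.9% on day 16. Wnt6 (chromosome 1, 74771892 to 74785322, GRCm38), a ligand of epithelia, showed the largest difference between the arms of any member. Wnt6 stood at 73.2, 78.5 and 79.3 FPKM on day 4, 48.8, 41.4 and 46.0 on day 7, 26.8, 30.2 and 32.8 on day 10 and 2.74, 3.02 and 0.752 on day 16 in the RA/CHIR libraries. The RA libraries had 0.481, 0.430 and 0.191 FPKM on day 4, 16.7, 16.6 and 15.8 on day 7, 28.1, 24.7 and 25.8 on day 10 and 4.80, 2.20 and 3.67 on day 16. The libraries of the arms did not overlap on days 4 and 7 and did overlap on days 10 and 16, where the differences were 0.19 on day 10 and -0.57 on day 16. Wnt6 differed between the arms by 5.84 on day 4 and 1.41 on day 7 (log2, SE 0.23 each, limma adjusted p between 6.22e-17 and 1.45e-05). The gene lies next to Wnt10a, 6193 bases away on the same strand. Wnt10a RNA was far scarcer, at 1.08, 0.838 and 1.1 FPKM in RA/CHIR-4d, and was listed at 0 in all RA-4d libraries. It was called higher on day 4, a call that was lost without RA/CHIR-4d replicate 1 (log2 difference 0.97), without RA/CHIR-4d replicate 3 (0.97) and under quantile normalization (0.93).

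Wnt2 (chromosome 6, 17988940 to 18030585), a ligand of heart and lung mesoderm that acts through beta-catenin, stayed near 0 with retinoic acid alone. Wnt2 had 7.56, 6.41 and 6.87 FPKM on day 4, 8.79, 8.03 and 7.52 on day 7, 5.80, 5.96 and 5.71 on day 10 and 0, 0 and 0.0691 on day 16 in the RA/CHIR arm. With retinoic acid alone it stood at 0.326, 0.172 and 0.191 FPKM on day 4, 0.540, 0.288 and 0.246 on day 7, 0.363, 0.284 and 0.487 on day 10 and 0.617, 0.622 and 0.394 on day 16. On days 4, 7 and 10 the lowest value with CHIR was above the highest without it, and on day 16 all values with CHIR were below those without it, at or near 0. Wnt2 differed between the arms by 2.69 on day 4, 2.75 on day 7 and 2.31 on day 10 (log2, SE 0.09 each, limma adjusted p between 1.23e-18 and 2.41e-17). Wnt8a, a ligand of the primitive streak stage, was called higher on days 4 and 7, and not on day 10 (0.92). Its mean was 4.57, 2.18 and 0.901 FPKM on days 4, 7 and 10 of the RA/CHIR arm, and it did not pass 0.208 FPKM in any RA library. The ligands Wnt3, Wnt7a and Wnt10b were also called higher on day 4, and Wnt7a was listed at 0 in all RA-4d libraries. Wnt3 averaged 1.39 FPKM in RA/CHIR-4d against 0.128 FPKM in RA-4d, Wnt10b 2.26 against 0.205 FPKM, and Wnt7a 1.79 FPKM in RA/CHIR-4d. The call of Wnt3 was lost without RA/CHIR-4d replicate 1 (log2 difference 0.99).

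Wnt4, Wnt9a and Wnt2b were lower with CHIR on days 7, 10 and 16, and Wnt4 on day 4 as well. Wnt4 (chromosome 4, 137277489 to 137299726) is a ligand needed for kidney tubules and the female gonad. With CHIR added, Wnt4 had 1.66, 1.98 and 1.76 FPKM on day 4, 2.02, 2.12 and 1.94 on day 7, 2.39, 2.21 and 2.90 on day 10 and 6.18, 6.78 and 5.92 on day 16. Without CHIR, it had 4.73, 5.14 and 5.61 FPKM on day 4, 21.4, 21.0 and 22.7 on day 7, 40.6, 44.2 and 44.2 on day 10 and 31.4, 29.7 and 34.5 on day 16. The libraries of the arms did not overlap on any day. Wnt4 differed between the arms by -1.13 on day 4, -2.90 on day 7, -3.66 on day 10 and -2.17 on day 16 (log2, SE 0.08 each, limma adjusted p between 1.12e-22 and 6.72e-12). Wnt9a (chromosome 11, 59306928 to 59333552) is a ligand known from joints. Wnt9a values with CHIR were 5.45, 5.91 and 5.12 FPKM on day 4, 4.59, 5.28 and 5.18 on day 7, 4.95, 4.81 and 5.01 on day 10 and 0.883, 0.937 and 1.29 on day 16. Its values in the RA arm were 3.77, 3.04 and 3.97 FPKM on day 4, 22.6, 18.7 and 18.0 on day 7, 27.3, 32.5 and 29.7 on day 10 and 11.1, 11.3 and 13 on day 16. On day 4 the RA/CHIR libraries lay above the RA libraries by 0.50, short of the threshold, and on the later days all lay below them. Wnt9a differed between the arms by -1.78 on day 7, -2.38 on day 10 and -2.65 on day 16 (log2, SE 0.12 each, limma adjusted p between 7.74e-17 and 8.8e-13). Wnt2b (chromosome 3, 104945272 to 104961921) is the closest relative of Wnt2. Wnt2b stood at 0.223, 0.430 and 0.149 FPKM on day 4, 1.13, 0.922 and 1.32 on day 7, 0.995, 1.12 and 0.730 on day 10 and 0.0510, 0.215 and 0.198 on day 16 in the RA/CHIR libraries. RA libraries had Wnt2b values of 0.427, 0.396 and 0.406 FPKM on day 4, 5.20, 4.18 and 4.86 on day 7, 11.9, 11.2 and 11.5 on day 10 and 6.29, 6.05 and 8.59 on day 16. Its arms overlapped on day 4 and not afterwards. Wnt2b differed between the arms by -1.44 on day 7, -2.69 on day 10 and -2.78 on day 16 (log2, SE 0.11 each, limma adjusted p between 1.3e-17 and 2.83e-11). On days 7 and 10 Wnt2b was lower, and Wnt2 higher, with CHIR.

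Wnt11, Wnt5a and Wnt5b, ligands best known for acting on cell movement and polarity, diverged by day 16. Wnt11 (chromosome 7, 98835112 to 98855195) takes part in gastrulation movements. Wnt11 had 11.4, 9.90 and 12.6 FPKM on day 4, 13.3, 17.1 and 15.9 on day 7, 25.2, 29.2 and 26.8 on day 10 and 7.53, 7.81 and 8.29 on day 16 in the RA/CHIR arm. The RA libraries had 4.51, 5.05 and 3.81 FPKM on day 4, 27.1, 20.9 and 25.1 on day 7, 47.1, 47.8 and 51.1 on day 10 and 24.5, 22.5 and 24.4 on day 16. The arms did not overlap on any day: RA/CHIR libraries lay above RA libraries on day 4 and below them on days 7, 10 and 16, with -0.62 on day 7 and -0.83 on day 10 below the threshold. Wnt11 differed between the arms by 1.17 on day 4 and -1.48 on day 16 (log2, SE 0.14 each, limma adjusted p between 5.33e-10 and 1.02e-07). Wnt5a (chromosome 14, 28504750 to 28527448) signals through Ror2. With CHIR added, Wnt5a had 0.617, 0.428 and 0.465 FPKM on day 4, 1.67, 1.15 and 1.23 on day 7, 2.47, 2.64 and 2.02 on day 10 and 2.91, 3.36 and 3.05 on day 16. With retinoic acid alone it stood at 2.20, 1.67 and 2.49 FPKM on day 4, 3.54, 3.51 and 3.64 on day 7, 5.05, 4.94 and 4.59 on day 10 and 18.0, 23.4 and 24.0 on day 16. All RA/CHIR libraries lay below all RA libraries on each day. Wnt5a differed between the arms by -1.05 on day 4 and -2.46 on day 16 (log2, SE 0.13 each, limma adjusted p between 3.24e-15 and 1.71e-07). The day 4 call was lost without RA-4d replicate 3 (-0.96). Wnt5b (chromosome 6, 119432531 to 119544347) is its nearest relative. Wnt5b values with CHIR were 7.92, 7.22 and 8.14 FPKM on day 4, 3.49, 4.25 and 3.90 on day 7, 2.92, 2.72 and 2.31 on day 10 and 0.251, 0.774 and 0.561 on day 16. Without CHIR, it had 4.71, 4.31 and 3.27 FPKM on day 4, 2.84, 2.99 and 2.05 on day 7, 4.33, 4.13 and 4.30 on day 10 and 7.33, 9.27 and 8.49 on day 16. The RA/CHIR libraries lay above the RA libraries on days 4 and 7, by 0.79 and 0.43, and below them on days 10 and 16, again without overlap. Wnt5b differed between the arms by -2.62 on day 16 (log2, SE 0.14, limma adjusted p = 4.96e-15). Wnt7b, at 2.19 FPKM or less in every library of both arms, was called lower on day 10 alone (-1.23 ± 0.10, limma adjusted p = 5.88e-11).

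**Figure D3:**
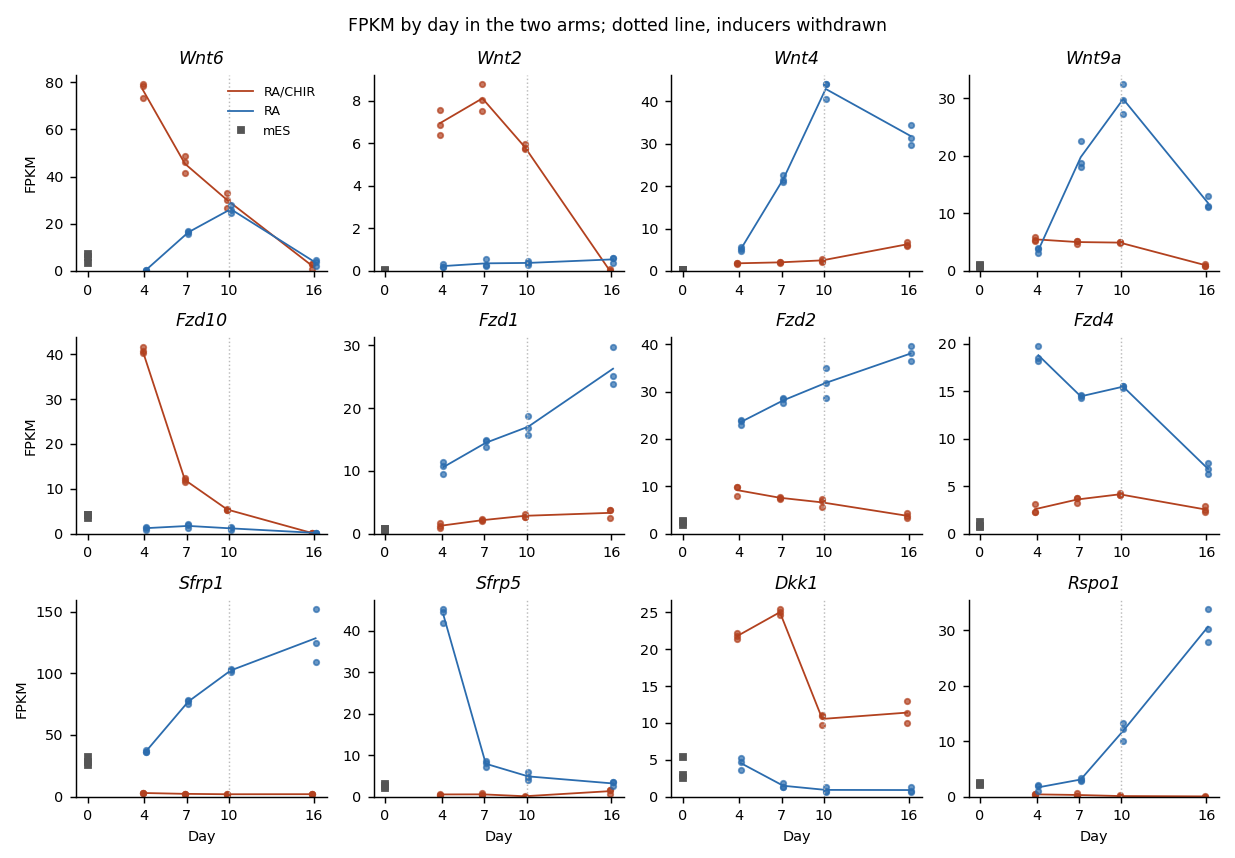
FPKM of 12 members by day; lines join group means, points are single libraries (3 per group), squares at day 0 are mES, and the dotted line marks day 10, when the inducers were withdrawn. Wnt6, Wnt2, Fzd10 and Dkk1 are higher in RA/CHIR while the inducers are present, except Wnt6 on day 10, where the arms overlap; Wnt4, Wnt9a, Fzd1, Fzd2, Sfrp1 and Rspo1 build up or stay high in RA alone.

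Of the 14 receptors and co-receptors, 1 was called higher on day 4 and on day 7, 2 on day 10 and 0 on day 16, and 5 were called lower on each day. The background over all genes ran from 3.34% higher and 4.28% lower on day 4 to 8.41% and 12.9% on day 16. Fzd10 (chromosome 5, 128600844 to 128604093), a Frizzled receptor that couples to beta-catenin, was the receptor called higher on days 4, 7 and 10. Fzd10 stood at 40.2, 40.7 and 41.7 FPKM on day 4, 12.4, 11.5 and 12 on day 7, 5.36, 5.49 and 5.31 on day 10 and 0.0569, 0.180 and 0.222 on day 16 in the RA/CHIR libraries. Its values in the RA arm were 1.34, 0.852 and 1.54 FPKM on day 4, 2.09, 1.92 and 1.22 on day 7, 0.853, 1.24 and 1.5 on day 10 and 0.219, 0.123 and 0.226 on day 16. The arms were far apart on day 4, less so on days 7 and 10, and overlapped on day 16. Fzd10 differed between the arms by 4.23 on day 4, 2.26 on day 7 and 1.55 on day 10 (log2, SE 0.12 each, limma adjusted p between 3.25e-20 and 1.42e-11). Fzd5 was called higher on day 10, at 3.64, 3.54 and 3.59 FPKM in RA/CHIR-10d against 0.710, 0.851 and 0.889 FPKM in RA-10d (1.34 ± 0.12, limma adjusted p = 2.37e-10).

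Fzd1, Fzd2 and Fzd4 were lower with CHIR on each day, and Fzd7 on days 4, 7 and 10. Fzd1 (chromosome 5, 4753839 to 4758035) binds ligands that act through beta-catenin. Fzd1 had 1.76, 1.17 and 0.854 FPKM on day 4, 1.95, 2.12 and 2.41 on day 7, 3.20, 2.70 and 2.67 on day 10 and 3.81, 3.71 and 2.45 on day 16 in the RA/CHIR arm. RA libraries had Fzd1 values of 9.52, 11.5 and 10.8 FPKM on day 4, 14.9, 13.8 and 14.7 on day 7, 18.7, 15.7 and 16.8 on day 10 and 23.9, 29.8 and 25.2 on day 16. In the RA arm its level grew with time, and in the RA/CHIR arm no library passed 3.81 FPKM. Fzd1 differed between the arms by -2.38 on day 4, -2.29 on day 7, -2.23 on day 10 and -2.67 on day 16 (log2, SE 0.15 each, limma adjusted p between 3.43e-14 and 2.17e-12). Fzd2 (chromosome 11, 102604396 to 102608058) also takes part in Wnt5a signals. With CHIR added, Fzd2 had 9.79, 7.93 and 9.86 FPKM on day 4, 7.41, 7.84 and 7.53 on day 7, 6.83, 5.67 and 7.35 on day 10 and 4.30, 3.71 and 3.36 on day 16. The RA libraries had 23.8, 24.1 and 22.9 FPKM on day 4, 28.4, 28.6 and 27.5 on day 7, 34.9, 28.7 and 31.9 on day 10 and 36.4, 39.6 and 38.1 on day 16. The gap between the arms widened from day to day, without overlap. Fzd2 differed between the arms by -1.28 on day 4, -1.76 on day 7, -2.11 on day 10 and -3.03 on day 16 (log2, SE 0.09 each, limma adjusted p between 3.98e-20 and 1.1e-11). Fzd4 (chromosome 7, 89404355 to 89413134) also serves as the receptor of Norrin in vessels. Fzd4 values with CHIR were 3.15, 2.32 and 2.29 FPKM on day 4, 3.26, 3.81 and 3.77 on day 7, 4.08, 4.10 and 4.30 on day 10 and 2.34, 2.88 and 2.49 on day 16. With retinoic acid alone it stood at 18.2, 18.5 and 19.7 FPKM on day 4, 14.6, 14.3 and 14.5 on day 7, 15.5, 15.4 and 15.6 on day 10 and 6.31, 7.42 and 6.79 on day 16. The arms stayed apart on each day, with the smallest gap on day 16. Fzd4 differed between the arms by -2.47 on day 4, -1.75 on day 7, -1.68 on day 10 and -1.13 on day 16 (log2, SE 0.10 each, limma adjusted p between 3.76e-17 and 9.54e-11). The day 16 call was lost under quantile normalization (-0.99). Fzd7 (chromosome 1, 59482424 to 59486955) is the Frizzled receptor best known from stem cells. Fzd7 stood at 17.2, 16.3 and 16.7 FPKM on day 4, 15.7, 17.8 and 16.2 on day 7, 15.8, 14.1 and 15.4 on day 10 and 22.2, 18.4 and 18.2 on day 16 in the RA/CHIR libraries. Without CHIR, it had 52.5, 49.96 and 53.2 FPKM on day 4, 46.6, 46.5 and 48.0 on day 7, 47.8, 47.5 and 48.2 on day 10 and 23.8, 33.5 and 28.3 on day 16. All RA/CHIR libraries lay below all RA libraries on each day, day 16 included, where the difference was -0.51. Fzd7 differed between the arms by -1.58 on day 4, -1.45 on day 7 and -1.61 on day 10 (log2, SE 0.09 each, limma adjusted p between 1.08e-14 and 1.45e-13). The mES libraries had 16.2, 15.8 and 16.8 FPKM.

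The receptors Ror1 and Ror2, which bind Wnt5a, differed in timing. Ror1 (chromosome 4, 100095791 to 100444765) gave these values. Ror1 had 1.31, 0.994 and 1.11 FPKM on day 4, 0.684, 0.778 and 0.832 on day 7, 0.365, 0.386 and 0.338 on day 10 and 0.350, 0.242 and 0.529 on day 16 in the RA/CHIR arm. Its values in the RA arm were 4.18, 3.72 and 3.97 FPKM on day 4, 4.97, 5.22 and 4.44 on day 7, 6.30, 7.09 and 5.96 on day 10 and 2.55, 3.32 and 2.50 on day 16. The arms did not overlap on any day. Ror1 differed between the arms by -1.22 on day 4, -1.73 on day 7, -2.45 on day 10 and -1.46 on day 16 (log2, SE 0.09 each, limma adjusted p between 4.23e-18 and 1.83e-11). Ror2 (chromosome 13, 53109312 to 53286124) was abundant in both arms while the inducers were present. With CHIR added, Ror2 had 15.3, 18.9 and 17.3 FPKM on day 4, 13.3, 12.6 and 11.9 on day 7, 11.5, 11.7 and 11.9 on day 10 and 2.87, 2.96 and 2.70 on day 16. RA libraries had Ror2 values of 9.36, 9.93 and 10.3 FPKM on day 4, 14.8, 13.5 and 13.7 on day 7, 16.6, 15.0 and 17.6 on day 10 and 15.8, 24.4 and 19.6 on day 16. The RA/CHIR libraries were the higher ones on day 4, by 0.74, and the lower ones on days 7, 10 and 16, with no overlap on any day. Ror2 differed between the arms by -2.43 on day 16 (log2, SE 0.11, limma adjusted p = 1.24e-16). The co-receptors Lrp5 and Lrp6 were called on no day. Lrp5 had group means between 14.2 and 25.8 FPKM over both arms, and Lrp6 between 5.65 and 11.1 FPKM. For Lrp5 all RA/CHIR libraries lay above all RA libraries on days 7 and 10, with means of 25.8 and 14.2 FPKM on day 10. For Lrp6 they lay below all RA libraries on days 4, 7 and 10, with means of 6.74 and 11.1 FPKM on day 4. On the remaining days the arms overlapped. The receptors Fzd6 and Fzd8, with group means of up to 12.9 and 11.9 FPKM over all 11 groups, and the scarcer Fzd3 and Fzd9 were called on no day either.

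Among the 7 R-spondins and Lgr receptors, 0 were called higher and 1 lower on day 4, 1 and 1 on day 7, 0 and 2 on day 10, and 0 and 3 on day 16. Background shares were 3.34% higher and 4.28% lower on day 4, rising to 8.41% and 12.9% on day 16. Single calls among so few genes cannot be told from such shares. Rspo1 (chromosome 4, 124986430 to 125009099), which enhances Wnt signals and acts with Wnt4 in the ovary, had high values in the RA arm from day 10. Rspo1 values with CHIR were 0.354, 0.422 and 0.414 FPKM on day 4, 0.611, 0.0601 and 0.178 on day 7, 0.0556, 0.215 and 0 on day 10 and 0, 0.0856 and 0 on day 16. The RA libraries had 1.90, 1.03 and 2.06 FPKM on day 4, 3.02, 2.86 and 3.33 on day 7, 13.3, 12.3 and 10.0 on day 10 and 30.2, 27.9 and 33.7 on day 16. Values with CHIR were below those without it on each day, with a difference of -0.91 on day 4. Rspo1 differed between the arms by -1.69 on day 7, -3.56 on day 10 and -4.94 on day 16 (log2, SE 0.14 each, limma adjusted p between 7.83e-21 and 9.55e-11). Rspo3 (chromosome 10, 29452416 to 29535867), an R-spondin needed for vessels, was lower with CHIR on days 10 and 16. Rspo3 stood at 1.45, 1.18 and 1.22 FPKM on day 4, 2.95, 2.35 and 2.0 on day 7, 2.81, 2.45 and 2.95 on day 10 and 0.629, 0.412 and 0.628 on day 16 in the RA/CHIR libraries. With retinoic acid alone it stood at 1.55, 1.33 and 2.03 FPKM on day 4, 3.38, 3.60 and 3.86 on day 7, 6.54, 6.57 and 6.87 on day 10 and 12.3, 10.4 and 10.2 on day 16. The arms overlapped on day 4 and not afterwards. Rspo3 differed between the arms by -1.04 on day 10 and -2.94 on day 16 (log2, SE 0.11 each, limma adjusted p between 1.8e-18 and 4.65e-09). The day 10 call was lost without RA/CHIR-10d replicate 2 (-0.98) or under quantile normalization (-0.94). Lgr4 (chromosome 2, 109917647 to 110014257), a receptor of R-spondins, showed the reverse order over time. Lgr4 had 7.57, 7.29 and 8.04 FPKM on day 4, 10.1, 10.2 and 11.6 on day 7, 14.5, 14.0 and 15.9 on day 10 and 28.0, 29.5 and 29.1 on day 16 in the RA/CHIR arm. Without CHIR, it had 23.8, 22.5 and 23.7 FPKM on day 4, 19.7, 18.5 and 20.5 on day 7, 21.1, 20.3 and 21.4 on day 10 and 20.2, 17.9 and 19.8 on day 16. Its level grew over the days with CHIR and lay between 17.9 and 23.8 FPKM with retinoic acid alone, and the RA/CHIR libraries were the lower ones on days 4, 7 and 10 and the higher ones on day 16, by 0.56. Lgr4 differed between the arms by -1.49 on day 4 (log2, SE 0.07, limma adjusted p = 5.33e-15). Lgr5, a stem cell marker of the gut and itself a Wnt target, was called higher on day 7 (2.89 FPKM in RA/CHIR-7d against 0.587 FPKM in RA-7d) and lower on day 16, where all values with CHIR were 0. Rspo2 and Lgr6 had less than 0.6 FPKM in every library of both arms.

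Among the 11 antagonists and Kremen receptors, 1 was called higher and 4 lower on days 4, 7 and 16, and 2 each on day 10. All genes tested gave 3.34% higher and 4.28% lower on day 4, and 8.41% and 12.9% on day 16. Sfrp1 (chromosome 8, 23411502 to 23449632), which binds Wnt ligands outside the cell, was the member with the largest falls from day 7 on. With CHIR added, Sfrp1 had 3.04, 2.89 and 2.75 FPKM on day 4, 2.15, 2.09 and 2.31 on day 7, 1.93, 1.55 and 2.12 on day 10 and 2.03, 1.87 and 1.85 on day 16. Its values in the RA arm were 36.0, 35.9 and 37.8 FPKM on day 4, 78.2, 77.5 and 75.4 on day 7, 101, 103 and 103 on day 10 and 109, 152 and 124 on day 16. In the RA arm its level was the highest of any member on days 7, 10 and 16, while RA/CHIR libraries stood at or below 3.04 FPKM, under the 28.4, 32.2 and 25.6 FPKM of mES. Sfrp1 differed between the arms by -3.27 on day 4, -4.62 on day 7, -5.18 on day 10 and -5.46 on day 16 (log2, SE 0.09 each, limma adjusted p between 9.57e-26 and 1.94e-20). Sfrp5 (chromosome 19, 42197971 to 42202252), an antagonist of the same family known from anterior endoderm, peaked early in the RA arm. Sfrp5 values with CHIR were 0.696, 0.463 and 0.369 FPKM on day 4, 0.905, 0.384 and 0.303 on day 7, 0, 0 and 0.218 on day 10 and 1.65, 1.63 and 0.609 on day 16. RA libraries had Sfrp5 values of 41.8, 44.6 and 45.1 FPKM on day 4, 8.59, 7.10 and 8.01 on day 7, 4.66, 3.89 and 6.02 on day 10 and 2.51, 3.40 and 3.54 on day 16. The arms did not overlap on days 4, 7 and 10, nor on day 16, where the difference of -0.88 was short of the threshold. Sfrp5 differed between the arms by -4.90 on day 4, -2.56 on day 7 and -2.44 on day 10 (log2, SE 0.17 each, limma adjusted p between 1.83e-18 and 1.5e-12). Frzb (chromosome 2, 80411970 to 80447625), also known as Sfrp3, dipped on day 10 of the RA arm. Frzb stood at 1.52, 2.30 and 1.75 FPKM on day 4, 1.57, 1.91 and 1.71 on day 7, 2.41, 2.72 and 2.96 on day 10 and 7.99, 8.24 and 7.72 on day 16 in the RA/CHIR libraries. The RA libraries had 11.4, 11.5 and 12.3 FPKM on day 4, 7.41, 7.22 and 7.21 on day 7, 2.03, 1.85 and 1.89 on day 10 and 13, 10.1 and 13 on day 16. RA/CHIR libraries lay below RA libraries on days 4, 7 and 16 and above them on day 10, where the difference was 0.34. Frzb differed between the arms by -2.16 on day 4 and -1.60 on day 7 (log2, SE 0.10 each, limma adjusted p between 2.78e-15 and 8.76e-13).

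Sfrp2 and Sfrp4, of the same family, were both lower with CHIR on day 16, and Sfrp4 was higher with CHIR on day 10. Sfrp2 (chromosome 3, 83766321 to 83774316) gave these values. Sfrp2 had 4.31, 4.51 and 4.44 FPKM on day 4, 2.79, 2.76 and 3.55 on day 7, 2.08, 2.17 and 2.76 on day 10 and 0.203, 0 and 0.397 on day 16 in the RA/CHIR arm. With retinoic acid alone it stood at 5.83, 4.03 and 4.52 FPKM on day 4, 2.11, 2.36 and 2.69 on day 7, 4.48, 3.01 and 2.96 on day 10 and 15.7, 20.6 and 14.9 on day 16. The arms overlapped on day 4, and on day 16 RNA of Sfrp2 was near 0 in the RA/CHIR arm and at its highest in the RA arm. Sfrp2 differed between the arms by -3.91 on day 16 (log2, SE 0.23, limma adjusted p = 6.07e-14). Sfrp4 averaged 1.69 ± 0.488 FPKM in RA/CHIR-10d and 0.126 ± 0.0877 FPKM in RA-10d, and 0.571 ± 0.437 FPKM in RA/CHIR-16d and 2.18 ± 0.307 FPKM in RA-16d (SD, n = 3 each). It was called higher on day 10 (1.24 ± 0.17) and lower on day 16 (-1.05 ± 0.17, limma adjusted p = 8.98e-06); the day 16 call was lost without RA-16d replicate 3 (-0.98), without RA/CHIR-16d replicate 2 (-0.87) and under quantile normalization (-0.78).

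Dkk1 (chromosome 19, 30545863 to 30549665), the Lrp5 and Lrp6 inhibitor whose gene is a known target of beta-catenin, was the member higher with CHIR on all 4 days. With CHIR added, Dkk1 had 21.9, 21.3 and 22.2 FPKM on day 4, 25.0, 25.4 and 24.7 on day 7, 11, 10.9 and 9.67 on day 10 and 11.3, 12.9 and 9.96 on day 16. Without CHIR, it had 4.76, 5.22 and 3.63 FPKM on day 4, 1.28, 1.82 and 1.29 on day 7, 1.25, 0.778 and 0.678 on day 10 and 1.26, 0.670 and 0.717 on day 16. The arms did not overlap on any day, day 16 included. Dkk1 differed between the arms by 2.05 on day 4, 3.41 on day 7, 2.61 on day 10 and 2.73 on day 16 (log2, SE 0.16 each, limma adjusted p between 1.8e-15 and 7.4e-11). Dkk3 (chromosome 7, 112116017 to 112159057), a divergent relative that does not bind Lrp6, started low with CHIR and caught up. Dkk3 values with CHIR were 5.63, 4.72 and 4.81 FPKM on day 4, 16.1, 13.9 and 16.2 on day 7, 25.2, 26.2 and 26.9 on day 10 and 48.1, 47.4 and 47.1 on day 16. Its values in the RA arm were 19.1, 18.5 and 18.0 FPKM on day 4, 31.3, 31.8 and 32 on day 7, 30.5, 28.9 and 31.0 on day 10 and 37.3, 49.0 and 42.1 on day 16. RA/CHIR libraries lay below RA libraries on days 4, 7 and 10, and the arms overlapped on day 16. Dkk3 differed between the arms by -1.69 on day 4 and -1.0 on day 7 (log2, SE 0.14 each, limma adjusted p between 2.15e-10 and 1.51e-06). The day 7 value sat at the threshold, and the call was lost without RA/CHIR-7d replicate 2 (-0.93), without RA-7d replicate 2 or 3 (-0.998 and -0.99) and under the TMM-kind scaling (-0.997). Dkk2, which also binds Lrp6, was called lower on day 16 (-1.68 ± 0.09, limma adjusted p = 3.45e-15), with 0.442, 0.658 and 0.765 FPKM in RA/CHIR-16d against 4.16, 4.55 and 3.85 FPKM in RA-16d. Kremen1, a receptor of Dkk proteins, had between 5.85 and 12.3 FPKM over both arms and was called on no day, nor was the scarcer Kremen2.

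Marker lists of other cell types, with 8 genes each, gave different summed levels in the arms. For the smooth muscle list the sums were 234 to 252 FPKM in RA/CHIR-4d against 294 to 305 FPKM in RA-4d, 169.7 to 183 FPKM in RA/CHIR-7d against 1470.5 to 1499.6 FPKM in RA-7d, 113 to 122 FPKM in RA/CHIR-10d against 1256 to 1274 FPKM in RA-10d and 467 to 483 FPKM in RA/CHIR-16d against 8979 to 10332 FPKM in RA-16d, with 7 and 8 markers at 1 FPKM or more in these last groups. For the fibroblast list the sums were 21.6 to 30.3 FPKM in RA/CHIR-4d against 30.6 to 32.5 FPKM in RA-4d, 15.4 to 19.2 FPKM in RA/CHIR-7d against 117 to 125 FPKM in RA-7d, 27.1 to 28.1 FPKM in RA/CHIR-10d against 207 to 223 FPKM in RA-10d and 431 to 469 FPKM in RA/CHIR-16d against 2934 to 3621 FPKM in RA-16d, with 7 and 8 markers at 1 FPKM or more in these last groups. Both sums were lower with CHIR on each day, with the widest gap in FPKM on day 16. Members of either list went both ways on day 4. Col1a1 averaged 7.55 FPKM in RA/CHIR-4d and 5.16 FPKM in RA-4d, against 2.17 and 16.0 FPKM for Col3a1. Des averaged 15.3 and 7.55 FPKM in these groups, and Tagln 106 and 165 FPKM. For the mesothelial and epicardial list the sums were 77.0 to 86.3 FPKM in RA/CHIR-4d against 226 to 234 FPKM in RA-4d, 172 to 183 FPKM in RA/CHIR-7d against 602 to 632 FPKM in RA-7d, 197 to 204 FPKM in RA/CHIR-10d against 564 to 580.4 FPKM in RA-10d and 327 to 336 FPKM in RA/CHIR-16d against 559 to 613 FPKM in RA-16d, with 3 and 7 markers at 1 FPKM or more in these last groups. Their members did not move alike on day 16. Wt1 averaged 0.244 ± 0.0709 FPKM in RA/CHIR-16d and 104 ± 6.16 FPKM in RA-16d, Msln 32.6 ± 0.440 and 21.2 ± 3.21 FPKM, and Krt19 294 ± 3.79 and 294 ± 11.3 FPKM (SD, n = 3 each). For the extraembryonic endoderm list the sums were 1791 to 1839 FPKM in RA/CHIR-4d against 3582 to 3714 FPKM in RA-4d, 2785 to 2896 FPKM in RA/CHIR-7d against 1841 to 1900.4 FPKM in RA-7d, 3388 to 3436 FPKM in RA/CHIR-10d against 1318 to 1344 FPKM in RA-10d and 10469 to 10973 FPKM in RA/CHIR-16d against 3138 to 3212 FPKM in RA-16d, with 8 and 8 markers at 1 FPKM or more in these last groups. For the visceral endoderm list the sums were 23.3 to 23.7 FPKM in RA/CHIR-4d against 88.0 to 93.6 FPKM in RA-4d, 17.7 to 19.0 FPKM in RA/CHIR-7d against 53.3 to 67.1 FPKM in RA-7d, 12.8 to 15.1 FPKM in RA/CHIR-10d against 24.3 to 27.0 FPKM in RA-10d and 757 to 780.4 FPKM in RA/CHIR-16d against 22.3 to 25.2 FPKM in RA-16d, with 8 and 6 markers at 1 FPKM or more in these last groups. The first of these sums was lower with CHIR on day 4 and higher afterwards, and the second was lower on days 4, 7 and 10 and higher on day 16. Sparc made up most of the first sum, with 2675 FPKM in RA/CHIR-10d and 1100 FPKM in RA-10d. Members of both lists went both ways on day 10. Gata6 averaged 30.9 FPKM in RA/CHIR-10d and 65.9 FPKM in RA-10d, and Sox17 333 and 40.3 FPKM. Cubn averaged 6.69 and 3.02 FPKM in these groups, and Ttr 2.15 and 7.87 FPKM. For the pluripotency list the sums were 829.7 to 843 FPKM in RA/CHIR-4d against 397 to 419 FPKM in RA-4d, 505 to 531 FPKM in RA/CHIR-7d against 105 to 125 FPKM in RA-7d, 412 to 428 FPKM in RA/CHIR-10d against 34.1 to 40.5 FPKM in RA-10d and 985 to 1039 FPKM in RA/CHIR-16d against 39.6 to 67.2 FPKM in RA-16d, with 7 and 5 markers at 1 FPKM or more in these last groups. Members of this list also went both ways on day 4. Pou5f1 averaged 350 FPKM in RA/CHIR-4d and 96.0 FPKM in RA-4d, and Tdgf1 0.445 and 8.04 FPKM. On day 16 Dppa5a made up most of the RA/CHIR sum, with 796 FPKM in RA/CHIR-16d and 43.5 FPKM in RA-16d. The part of all these cell types in the member differences was not tested.

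Whether the effect of CHIR changed while both inducers were present was tested by the interaction of day and arm, the difference between the arms on day 10 minus that on day 4. It was positive for 6 and negative for 17 of the 51 members, where 6.29% and 7.83% of all genes were called in those directions. Of the 19 ligands, 12 were called lower and 0 higher (median -1.25, against -0.03 over all genes tested), so their differences between the arms shifted downwards from day 4 to day 10. The lowest values were those of Wnt6 (-5.65 ± 0.33), Wnt9a (-2.88 ± 0.16), Fzd10 (-2.69 ± 0.17), Rspo1 (-2.65 ± 0.20) and Wnt2b (-2.53 ± 0.16), with limma adjusted p of 2.12e-11 or less. For Wnt6 and Fzd10 the excess with CHIR was smaller on day 10 than on day 4. For Rspo1 and Wnt2b the deficit with CHIR was larger on day 10, and for Wnt9a an excess on day 4 gave way to a deficit. Among members with at least 5 FPKM in a group compared, the highest values were those of Frzb (2.50 ± 0.15), Sfrp5 (2.46 ± 0.23), Dkk3 (1.49 ± 0.20) and Lgr4 (1.02 ± 0.10), all of them genes whose deficit with CHIR was smaller on day 10 than on day 4, or gone. The scarcer Sfrp4 (1.13 ± 0.25) and Fzd5 (1.05 ± 0.17) were called as well. Their arms differed by 1.24 and 1.34 on day 10 and by 0.11 and 0.28 on day 4, where neither was called. With a pseudocount of 0.1 in place of 1, the calls of Sfrp5 (1.15, limma adjusted p = 0.0872) and Wnt8a (-1.53, limma adjusted p = 0.0867) were lost. Leaving out 1 library ended the calls of Lgr4 (without RA/CHIR-4d replicate 2, 0.99, or RA/CHIR-10d replicate 3, 0.97), Fzd5 (without RA-4d replicate 3, 0.98) and Wnt7b (without RA/CHIR-10d replicate 3, -0.99).

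The first 4 days of treatment were compared with mES. Both comparisons share the mES libraries. In RA/CHIR-4d, 19 of the 51 members were called higher than in mES and 7 lower (background 9.06% and 9.13%), and in RA-4d 15 higher and 5 lower (background 11.7% and 11.7%). The median over all members was 0.33 and 0.21, against -0.01 and -0.01 over all genes tested. Of the 19 ligands, 10 were higher and 0 lower in RA/CHIR-4d, and 4 higher and 1 lower in RA-4d. Wnt6, at 5.72, 3.57 and 7.25 FPKM in mES, was higher in RA/CHIR-4d (3.62 ± 0.23, limma adjusted p = 4.41e-13) and lower in RA-4d (-2.22 ± 0.23, limma adjusted p = 4.69e-09). The other largest rises in RA/CHIR-4d were those of Fzd10 (3.10), Wnt2 (2.96), Wnt5b (2.41) and Dkk1 (2.35), and in RA-4d those of Sfrp5 (3.69), Frzb (3.53), Fzd4 (3.39), Fzd1 (2.98) and Fzd2 (2.89).

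Fzd5, the leading Frizzled receptor of mES, had 2.72, 2.26 and 2.35 FPKM in RA/CHIR-4d and 1.64, 1.73 and 2.12 FPKM in RA-4d, against 35.2, 37.7 and 27.4 FPKM in mES. It fell in both arms (-3.31 ± 0.12 and -3.60 ± 0.12, limma adjusted p = 1.47e-18 and 1.7e-19), and all treated libraries lay below all mES libraries. Sfrp1 (-2.93 ± 0.09) and Lgr4 (-1.20 ± 0.07) fell in RA/CHIR-4d and were not called in RA-4d (0.34 and 0.29). Feeder markers were present in mES, where the 8 of them summed to 38.6 to 65.0 FPKM with 6 at 1 FPKM or more, against 21.6 to 30.3 FPKM in RA/CHIR-4d and 30.6 to 32.5 FPKM in RA-4d, and their part in these differences was not tested. Calls near the threshold were lost without 1 library. In RA/CHIR-4d these were Fzd6 (without mES replicate 3, 0.99), Ror1 (without RA/CHIR-4d replicate 1, 0.97) and Wnt3 (without mES replicate 3, 0.93, or RA/CHIR-4d replicate 1, 0.91). In RA-4d they were Fzd10 (without RA-4d replicate 2, -0.998) and Wnt5a (without mES replicate 1, 0.99, or RA-4d replicate 3, 0.98).

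Withdrawal of the inducers, day 16 against day 10, was followed by more falls than rises in the RA/CHIR arm. In the RA arm called rises outnumbered called falls with the pseudocount of 1, but not with 0.1. In the RA/CHIR arm, 3 of the 51 members rose and 11 fell (background 8.47% and 6.28%, median -0.26 against 0.00 over all genes tested). The falls were led by Wnt6 (-3.38 ± 0.23), Wnt2 (-2.74 ± 0.09), Fzd10 (-2.47 ± 0.12), Dkk2 (-1.93 ± 0.09) and Ror2 (-1.72 ± 0.11), with limma adjusted p of 2.55e-12 or less. Among members with at least 5 FPKM, Frzb (1.28 ± 0.10) and Wnt4 (1.06 ± 0.08) rose. The third rise was that of Sfrp5, and its call was lost without RA/CHIR-16d replicate 1 or 2 (0.94 and 0.95). In the RA arm, 6 members rose and 4 fell (background 7.37% and 1.80%, median 0.00 against 0.01). Rises were those of Frzb (2.15 ± 0.10), Sfrp2 (2.01 ± 0.23), Wnt5a (1.95 ± 0.13) and Rspo1 (1.30 ± 0.14), beside Fzd5 and Sfrp4 at lower levels. Falls were those of Wnt6 (-2.62 ± 0.23), Wnt9a (-1.27 ± 0.12), Fzd4 (-1.08 ± 0.10) and Wnt11 (-1.002 ± 0.14, limma adjusted p = 1.23e-06). The call of Wnt11 was lost without RA-10d replicate 3 (-0.97) or RA-16d replicate 2 (-0.96). With a pseudocount of 0.1 the RA arm had 16 members called in place of 10, with 7 rises and 9 falls. Over all genes, 80.4% of the RA arm's calls were rises, and 69.9% under quantile normalization. Among the members' calls these shares were 60% and 54.5%.

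An interaction test compared the changes after withdrawal, taking that of the RA/CHIR cells less that of the RA cells, and called 16 of the 51 members. It was positive for 4 and negative for 12 (background 6.02% and 8.81%, median -0.28 against -0.01 over all genes tested). Among members with at least 5 FPKM in a group compared, the lowest values were those of Sfrp2 (-3.50 ± 0.33), Wnt2 (-2.90 ± 0.13), Dkk2 (-2.23 ± 0.12), Wnt5b (-2.10 ± 0.20) and Ror2 (-1.97 ± 0.15), with limma adjusted p of 2.29e-09 or less. All 5 fell in the RA/CHIR arm. In the RA arm Sfrp2 rose, and Wnt2 (0.16), Dkk2 (0.30), Wnt5b (0.83) and Ror2 (0.25) were not called. Positive values were those of Wnt4 (1.48 ± 0.11), Fzd7 (1.09 ± 0.12) and Lgr4 (1.03 ± 0.10), and of the scarcer Sfrp5. The calls of Fzd7 (without RA-16d replicate 1, 0.97) and Lgr4 (without RA-16d replicate 2, 0.98, or RA/CHIR-10d replicate 2, 0.995) were lost with 1 library left out. Wnt6, Wnt9a and Wnt11 fell in both arms, with interaction values of -0.76, -0.28 and -0.66 that were not called. The serum content also changed at withdrawal, and 6 further days of culture passed. No group kept the inducers until day 16, so the parts of inducers, serum and time cannot be told apart.

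**Figure D4:**
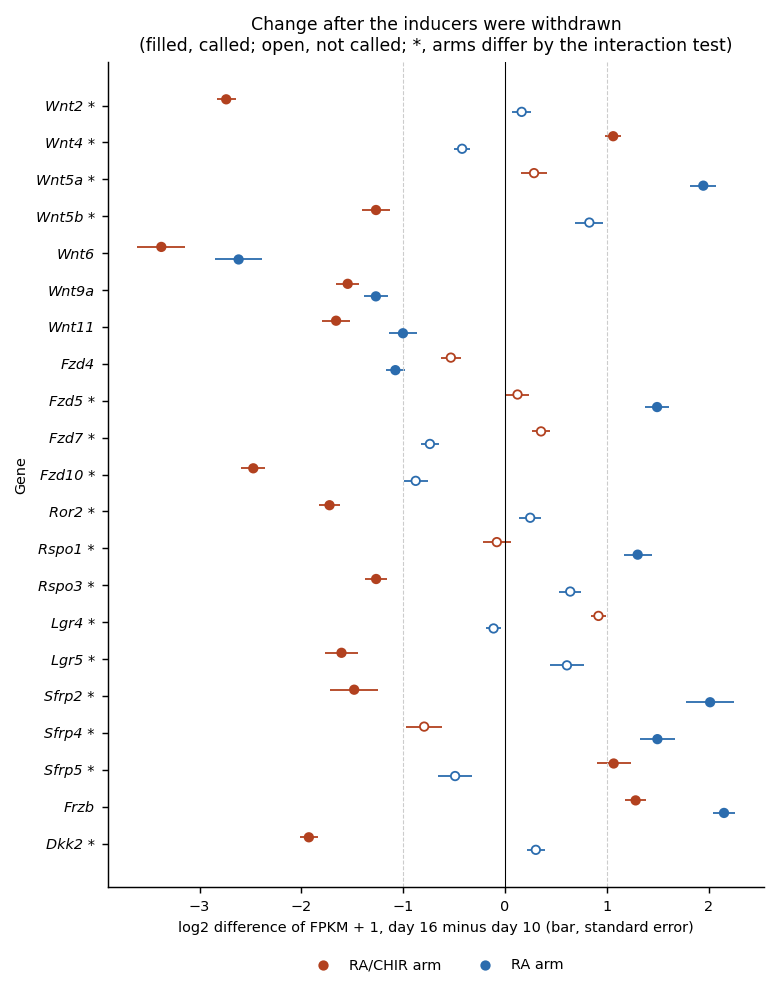
Log2 difference of FPKM + 1, day 16 minus day 10, in the RA/CHIR arm (red, upper point of each pair) and the RA arm (blue) for the members called in either arm or by the interaction test (asterisk); bars are standard errors, filled points called changes. Wnt2, Ror2 and Dkk2 fell in the RA/CHIR arm and were not called in the RA arm, Sfrp2 moved in opposite directions, and Wnt6 fell in both.

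The extraembryonic endoderm line and the smooth muscle line had different sets of these genes. Of the 51 members, 6 were higher in XEN than in SMC and 21 lower (background 12.5% and 17.2%, median -0.35 against 0.00 over all genes tested). The ligands Wnt6, Wnt4, Wnt7a, Wnt7b and Wnt11 were higher in XEN. Wnt6 had 15.9, 19.3 and 17 FPKM in XEN against 0.447, 0 and 0 FPKM in SMC (4.02 ± 0.23), and Wnt4 16.4, 14.9 and 15.9 FPKM against 0.0974, 0.162 and 0.158 FPKM (3.87 ± 0.08). Wnt7a, a ligand of epithelia that patterns the limb, had 8.42, 9.13 and 9.0 FPKM in XEN, and its relative Wnt7b 6.21, 5.84 and 5.15 FPKM, and both were listed at 0 in all SMC libraries. Wnt11 had 33.9, 26.5 and 40.1 FPKM in XEN against 7.87, 7.75 and 5.34 FPKM in SMC (2.11 ± 0.14). The XEN libraries lay above the SMC libraries for each of these 5 ligands. All 7 antagonists and Kremen receptors called between the lines were lower in XEN, as were Ror1, Ror2 and 4 Frizzled receptors (Fzd1, Fzd4, Fzd5 and Fzd8).

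Ror1 had 0.669, 0.749 and 0.647 FPKM in XEN against 33.2, 32.4 and 31.3 FPKM in SMC (-4.30 ± 0.09). Sfrp1 had 3.22, 3.82 and 3.23 FPKM in XEN against 81.3, 80.7 and 85.2 FPKM in SMC (-4.24 ± 0.09). Wnt5a had 0.474, 0.120 and 0.147 FPKM in XEN against 15.5, 12.8 and 13 FPKM in SMC (-3.57 ± 0.13). For each of the 3 genes the lines were far apart, without overlap. Dkk3 had 2.14, 1.77 and 1.35 FPKM in XEN against 28.5, 28.7 and 28.3 FPKM in SMC (-3.43 ± 0.14), and Fzd1 had 1.34, 1.27 and 1.02 FPKM against 21.2, 21.5 and 20.3 FPKM (-3.32 ± 0.15). The limma adjusted p was 2.37e-13 or less for these genes. Fzd2 was abundant in both lines, with 63.8, 63.3 and 71.3 FPKM in XEN and 82.5, 85.3 and 79.0 FPKM in SMC, and was not called (-0.31). The call of Wnt9a, lower in XEN, was lost without XEN replicate 1 (-0.97) or SMC replicate 1 (-0.99). Quantile normalization ended the calls of Wnt9a (-0.67), Wnt2b (-0.67) and Wnt10b (-0.89).

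At day 16 each arm was set against the line it is labelled after. In RA/CHIR-16d, 7 of the 51 members were higher than in XEN and 8 lower (background 14.5% and 8.64%, median 0.03 against 0.07 over all genes tested). With the 5 FPKM limit, Dkk3 (4.15 ± 0.14), Dkk1 (2.94 ± 0.16), Lgr4 (2.18 ± 0.07) and Frzb (1.52 ± 0.10) led the higher ones, and Fzd2 (-3.81 ± 0.09), Wnt7a (-3.10 ± 0.12), Wnt6 (-2.63 ± 0.23), Wnt7b (-1.95 ± 0.10) and Wnt11 (-1.94 ± 0.14) the lower ones, with limma adjusted p of 1.93e-10 or less. Of the 5 ligands named as higher in XEN than in SMC, each was lower in RA/CHIR-16d than in XEN. Both comparisons share the XEN libraries, and choosing ligands that are high there favours this outcome. Sfrp1 stood at 2.03, 1.87 and 1.85 FPKM in RA/CHIR-16d and 3.22, 3.82 and 3.23 FPKM in XEN, and was not called (-0.60). With a pseudocount of 0.1, 26 members were called in place of 15, of which 17 were higher and 9 lower. All genes tested then gave 3716 higher and 1826 lower. Over all genes, 62.7% of calls were higher in RA/CHIR-16d, and 50.4% under quantile normalization, which moved the median of all genes by -0.15 and ended the call of Fzd5 (0.59, in place of 1.18). With the pseudocount of 1, the share of members called higher was close to the background. The visceral endoderm markers summed to 757 to 780.4 FPKM in RA/CHIR-16d against 10.9 to 22.3 FPKM in XEN (8 and 2 of 8 at 1 FPKM or more), and their part in these differences was not tested.

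Against SMC, 14 of the 51 members were higher in RA-16d and 10 lower (background 15.0% and 10.5%, median 0.22 against 0.06 over all genes tested). With the same limit, Wnt4 (4.85 ± 0.08), Rspo1 (4.70 ± 0.14), Sfrp2 (2.54 ± 0.23), Wnt5b (1.94 ± 0.14) and Wnt2b (1.85 ± 0.11) led the higher ones, while the scarcer Wnt6 (1.97) was higher and Sfrp5 was listed at 0 in all SMC libraries. Rspo1 had 0.150, 0.190 and 0.291 FPKM in SMC, far below every RA-16d library. By that limit too, Ror1 (-3.14 ± 0.09), Fzd5 (-1.73 ± 0.12), Kremen1 (-1.56 ± 0.09), Fzd4 (-1.38 ± 0.10) and Fzd8 (-1.35 ± 0.15) led the lower ones, and limma's adjusted p was 1.57e-08 or less for these 10. Below it, Lgr6 (-1.999) and Rspo2 (-1.98) were lower in RA-16d as well. Kremen1, the Dkk receptor, had 5.85, 7.72 and 6.33 FPKM in RA-16d against 20.8, 22.1 and 21.4 FPKM in SMC. Fzd8, a Frizzled receptor, had 3.23, 5.62 and 3.65 FPKM in RA-16d against 11.1, 12.2 and 12.5 FPKM in SMC. Neither gene's libraries overlapped between the groups. Sfrp1 and Fzd1, both abundant in SMC, were not called (0.62 and 0.31). Leaving out 1 library ended the calls of Lrp5 (without RA-16d replicate 2 or 3, 0.96 and 0.94, or SMC replicate 2, 0.93) and Wnt9a (without RA-16d replicate 3, 0.94, or SMC replicate 3, 0.89). Quantile normalization left 10 members higher and 9 lower. It ended the calls of Dkk2 (0.85), Fzd2 (-0.79), Lrp5 (0.95), Wnt7b (0.72) and Wnt9a (0.86), the last also lost under TMM-kind scaling (0.98). Over all genes, 58.9% of calls were higher in RA-16d, and 50.8% under quantile normalization. Mesothelial and epicardial markers summed to 559 to 613 FPKM in RA-16d against 35.5 to 41.8 FPKM in SMC (7 and 6 of 8 at 1 FPKM or more), and their part in these differences was not tested.

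**Figure D5:**
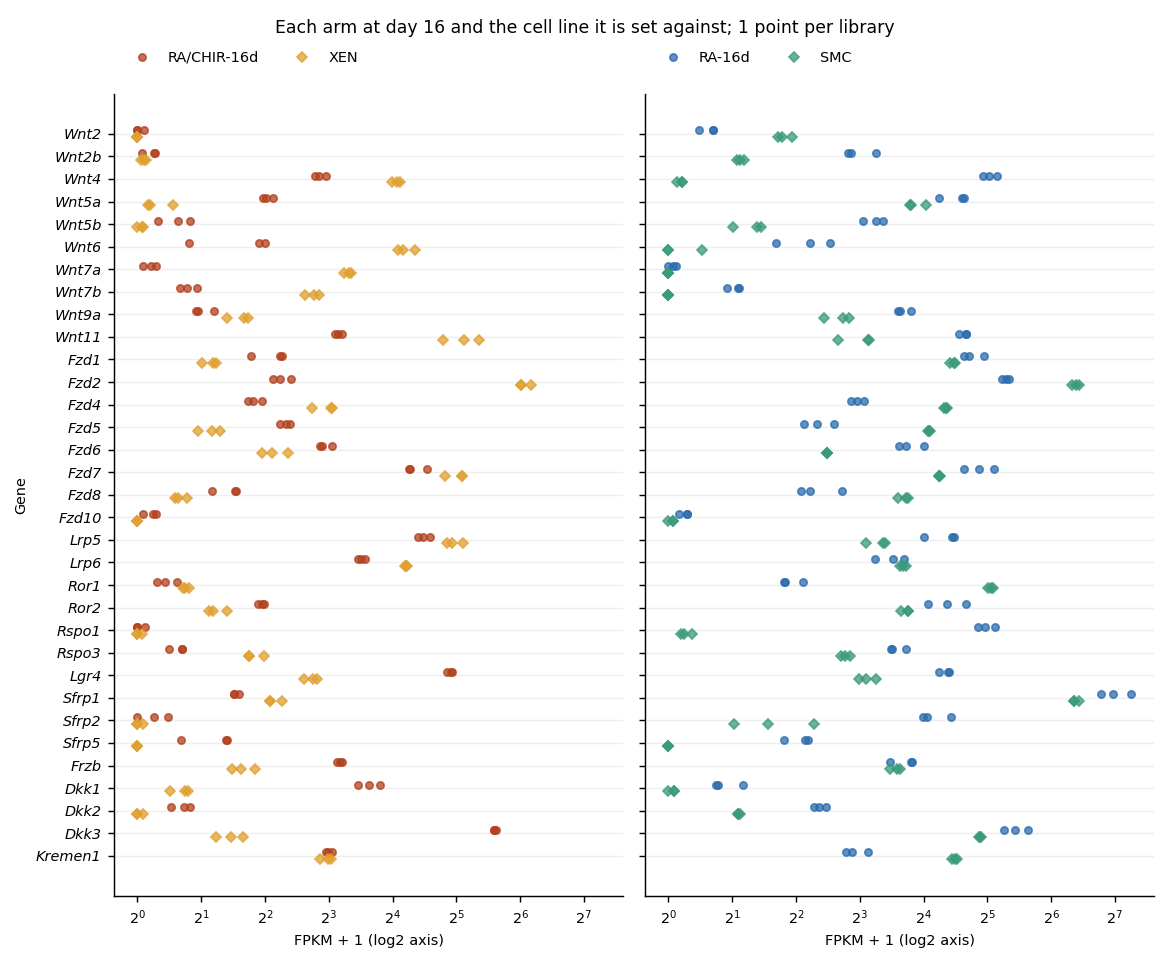
FPKM + 1 on a log2 axis of the 33 members that reached a mean of 5 FPKM in any group, 1 point per library; left, RA/CHIR-16d (circles, upper of each pair) and XEN (diamonds); right, RA-16d (circles) and SMC (diamonds). Dkk3 and Dkk1 lie right of XEN and Fzd2, Wnt6 and Wnt7a left of it on the left side; on the right side Wnt4 and Rspo1 lie right of SMC and Ror1 left of it.

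Other genes of the pathway were counted by lists chosen by role. Over all genes tested, 3.34% were called higher and 4.28% lower on day 4, and 4.06% and 6.61% on day 7. On day 10 these shares were 6.35% and 9.07%, and on day 16 they were 8.41% and 12.9%. Of 22 genes for Wnt secretion and other extracellular or surface regulators, RA/CHIR against RA, 7 were higher and 4 lower on day 4, 6 and 5 on day 7, 6 and 5 on day 10, and 1 and 9 on day 16. The largest changes on day 4 were those of Notum, the enzyme that removes the lipid of Wnt ligands, the ligand-binding inhibitor Wif1, the membrane inhibitor Apcdd1 and the Wnt7 co-receptor Adgra2. Notum averaged 93.1 against 0.213 FPKM (log2 6.29) on day 4 and 0.201 against 3.79 FPKM (log2 -1.999) on day 16, RA/CHIR against RA. Wls, the carrier that takes ligands to the cell surface, averaged 68.5 against 58.8 FPKM (log2 0.22) on day 4, 75.7 against 89.1 FPKM (log2 -0.23) on day 7, 83.8 against 118 FPKM (log2 -0.49) on day 10 and 53.6 against 122 FPKM (log2 -1.17) on day 16, and was called lower on the last of these days; it was named after its values were seen. Of 30 cytoplasmic transducers and nuclear effectors, 4 were higher and 2 lower on day 4, 4 and 3 on day 7, 4 and 4 on day 10, and 1 and 7 on day 16. Axin2, a scaffold of the destruction complex and a direct target of the pathway, led on day 4, with 81.4 against 2.52 FPKM (log2 4.55), ahead of the feedback inhibitor Nkd1 and the transcription factors Lef1 and Tcf7, and stood at 1.57 against 6.54 FPKM (log2 -1.55) on day 16. Ctnnb1, which encodes beta-catenin, was called on no day. Of 22 genes of the planar polarity and calcium branch, 0 were called on day 4, 1 higher and 2 lower on day 7, 1 and 4 on day 10, and 1 and 3 on day 16, with the formin gene Daam2, lower on days 7, 10 and 16, as the largest change. Counts of this last list were small, and whether they depart from the shares over all genes was not tested.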

How the data were processed

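The deposited table holds FPKM for 52631 genes in 33 libraries, as the authors computed it. Per the submitters' processing notes, Trimmomatic 0.33, HISAT2 2.0.4, Cufflinks and Cuffdiff were used with the build GRCm38; parameters are not given in the sources used here. Per the labels' protocols, poly(A) libraries were read as 150 bp pairs. No fragment counts are held, so counting intervals are unknown. Low values of 2150 genes fell within 10% of whole steps in 96.8% of cases and gave only relative depths.

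Values were taken as log2(FPKM + 1). The 16508 genes with at least 1 FPKM in at least 3 libraries entered limma 3.58.1 (R 4.3.3), as 1 model of 11 groups over 33 libraries with a trended prior, two-sided, with Benjamini-Hochberg adjustment over all genes tested in each comparison. Calls need an adjusted p under 0.05 and a log2 difference of at least 1. The script was tested on simulated data. Medians and counts over members cover all 51, untested ones counted as not called. Coordinates come from GENCODE M21 (GRCm38).

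The members, the pathway lists and the marker lists were chosen with earlier results of these data known. Members called between the arms on a day with at least 5 FPKM in the higher group are given by library (24 members); elsewhere, up to 5 highest and 5 lowest called members with at least 5 FPKM are named, and of each pathway list up to 4 genes a day. Further genes were named after their values were seen, as calls at the threshold or genes below 5 FPKM. Alternatives were TMM-kind scaling, quantile normalization, a pseudocount of 0.1, no filter or one at 5 FPKM, no variance trend, only the groups compared, a replicate block and leaving out each library. Figures used Python 3.11.15 and matplotlib 3.10.9.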

Additional observations from a re-analysis of the deposited data

Results flagged for a closer look

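The change from day 10 to day 16 differed between the arms, by limma's interaction test, for 16 members (RA/CHIR arm minus RA arm, log2). For the 8 of them named in the results by the rule on 5 FPKM and on the largest values, the values were -3.50 for Sfrp2, -2.90 for Wnt2, -2.23 for Dkk2, -2.10 for Wnt5b, -1.97 for Ror2, 1.48 for Wnt4, 1.09 for Fzd7 and 1.03 for Lgr4. Sfrp2 had 0.203, 0 and 0.397 FPKM in RA/CHIR-16d against 2.08, 2.17 and 2.76 FPKM in RA/CHIR-10d, and 15.7, 20.6 and 14.9 FPKM in RA-16d against 4.48, 3.01 and 2.96 FPKM in RA-10d. Dkk2 had 0.442, 0.658 and 0.765 FPKM in RA/CHIR-16d against 4.94, 4.94 and 5.57 FPKM in RA/CHIR-10d, and 4.16, 4.55 and 3.85 FPKM in RA-16d against 3.22, 3.06 and 3.32 FPKM in RA-10d.

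The difference between the arms on day 10 departed from that on day 4, by the interaction test, for 23 members. For the 9 of them named by the same rule, the values were -5.65 for Wnt6, -2.88 for Wnt9a, -2.69 for Fzd10, -2.65 for Rspo1, -2.53 for Wnt2b, 2.50 for Frzb, 2.46 for Sfrp5, 1.49 for Dkk3 and 1.02 for Lgr4. Both sets of values are those of the tests in the results above.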

How the results depend on the processing

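Over the 13 comparisons, 253 changes of members were called, and 222 of them kept their direction and their call under every alternative in which they were tested, and 0 were reversed. Calls were lost in 18 cases under quantile normalization, in 2 under TMM-kind scaling, in 2 with a pseudocount of 0.1 and in 35 when 1 library was left out, and in 0 with no variance trend, with no filter, with only the groups compared or with the replicate block. A pseudocount of 0.1 enlarged counts by over 1.5 times. All genes called were then 2192 (in place of 1259) on day 4, 2964 (1762) on day 7 and 3888 (2546) on day 10 between the arms, 3820 (2435) for RA/CHIR-16d against RA/CHIR-10d and 2339 (1514) for RA-16d against RA-10d. Members called were 16 (10) for RA-16d against RA-10d and 26 (15) for RA/CHIR-16d against XEN. With 1 library left out, members called on days 4, 7, 10 and 16 numbered 20 to 23, 18 to 21, 17 to 18 and 18 to 20, and in the other comparisons the counts stayed within 1.5 times. Replicate numbers do not pair the libraries. Deviations of same-numbered libraries correlated between -0.08 and 0.11, and with the replicate block the members called on day 4 were 22, as without it. Quantile normalization moved the shares of rises given beside the results. Without counts, the precision of values near 0 is unknown.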

Other observations

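Dkk4, a Dkk antagonist too weakly expressed for the tests, had 0.537, 0.562 and 0.819 FPKM in RA/CHIR-4d, 0.0939, 0.278 and 0 in RA/CHIR-7d and 0.0871, 0.546 and 0.0891 in RA/CHIR-10d, and was listed at 0 in all libraries of RA/CHIR-16d, of the RA arm, mES, XEN and SMC. Wnt8b, a ligand below the filter as well, had 0.431, 0.587 and 0.479 FPKM in RA/CHIR-10d and was listed at 0 in all RA-10d libraries. Wnt1, whose gene lies 11706 bases from Wnt10b, had 0.259, 0.335 and 0.892 FPKM in RA-4d and was listed at 0 in all RA/CHIR-4d libraries. Wnt3a had 0.430, 0.276 and 0.659 FPKM in mES, 0.153, 0.0797 and 0.225 in RA/CHIR-4d and 0 in all RA-4d libraries; its neighbour Wnt9a, 16175 bases away on the opposite strand, is described with the results. These genes were chosen after their values were seen, and their differences were not tested.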
